A study of Mus musculus with 18 samples.

Results

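Semaphorins are guidance cues for growing axons and migrating cells, and plexins and neuropilins are their receptors. All genes of these families with an array probe set that names a single gene were taken by symbol, whatever their values: 20 semaphorins (7 of class 3, 6 of class 4, 2 of class 5, 4 of class 6 and 1 of class 7), 9 plexins and 2 neuropilins, 31 of 22180 genes measured. Class 3 semaphorins are secreted and mostly bind a neuropilin, which holds the ligand while a plexin A or plexin D1 passes the signal into the cell. The other classes are bound to the membrane and bind plexins directly. Inside the cell plexins act on small GTPases, kinases and collapsin response mediator proteins, and thereby on the cytoskeleton. In the mouse cerebellum *Sema6a* with *Plxna2*, and *Sema4c* and *Sema4g* with *Plxnb2*, are known for their roles in the migration and development of granule cells.

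RNA was measured on Affymetrix Mouse Gene 2.0 ST arrays, and every value below is a log2 signal unless stated. Whole cerebella at P3 came from 3 *Dot1l*-cKO mice (*Dot1l* f/f, *Atoh1* cre/+) and 3 control mice (*Dot1l* f/f, *Atoh1* +/+), all on a C57BL6/J background. For control replicate 3 the title gives *Dot1l* f/f and the description *Dot1l* f/+. In the mutants *Atoh1*-Cre deletes exon 2 of *Dot1l*, the gene of the H3K79 methyltransferase, in the granule cell lineage. Cells of the same cerebella without Cre keep it. Cultures came from NMRI mice at P7. Granule neuron progenitors (CGNP), kept with SHH, were treated for 4 h at day 1 in vitro with SGC0946, an inhibitor of DOT1L, or with the solvent DMSO (3 cultures each). Differentiated granule neurons (CGN), kept with FBS, had 44 h of SGC0946 or DMSO (2 cultures each used here). The labels give the CGNP cultures to mice 29 and 30, 1 culture of each treatment from both mice together, so these arrays rest on 2 mice. For the CGN arrays the labels give days 5 and 7 in vitro with SGC0946 (the day 7 culture at P9) and days 2 and 4 with DMSO. These labelled days rise in array order. The descriptions of the same arrays give day 1, and the paper a single schedule, with 44 h of inhibitor from 4 h after plating. Which of them holds was not settled. In the CGN comparison treatment and labelled time in culture cannot be told apart. p-values measure only the spread between these arrays, which for cultures may be partly technical.

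The *Dot1l* probe set read 9.24, 9.43 and 9.01 in *Dot1l*-cKO, against 9.05, 9.13 and 9.05 in control cerebella. It covers more than the deleted exon and all cells of the tissue, and checks the deletion poorly. The lineage markers of granule cells and the genes of proliferation had lower summed signals in *Dot1l*-cKO cerebella, at 7416 to 7920 in *Dot1l*-cKO, against 8850 to 9144 in controls, for the lineage, and 4312 to 4986 in *Dot1l*-cKO, against 5760 to 6105 in controls, for proliferation (linear scale). In whole tissue fewer cells of a type and less RNA per cell cannot be told apart.

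Promoters are shown for the 4 members with an unadjusted p of 0.05 or less and higher signals in *Dot1l*-cKO, and lower signals in SGC0946-treated CGN, whose arrays overlapped in neither comparison. They come from RefSeq on build GRCm38.p6 and run from 250 bases before to 50 bases after the start, 5′ to 3′ on the gene's strand. Where several starts are listed the one farthest upstream is shown. For *Sema6d* and *Plxnb3* the listed start is not the outer end of the gene in the same annotation. Measured to that end, the distances of 250 and 50 bases held for 10 of 26 members and for 73.4% of all genes listed. Capitals mark GC boxes, the letters GGGCGG on either strand. *Sema4a* lies at chr3:88461133-88461432 on the minus strand, *Sema5a* at chr15:32244563-32244862, *Sema6d* at chr2:124089719-124090018 and *Plxnb3* at chrX:73756853-73757152, all 3 on the plus strand.
Sema4a: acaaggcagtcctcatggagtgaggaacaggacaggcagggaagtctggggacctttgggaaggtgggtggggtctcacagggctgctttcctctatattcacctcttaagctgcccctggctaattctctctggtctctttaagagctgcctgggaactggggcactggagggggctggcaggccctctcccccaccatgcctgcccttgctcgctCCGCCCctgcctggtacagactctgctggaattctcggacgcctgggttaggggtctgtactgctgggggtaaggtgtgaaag
Sema5a: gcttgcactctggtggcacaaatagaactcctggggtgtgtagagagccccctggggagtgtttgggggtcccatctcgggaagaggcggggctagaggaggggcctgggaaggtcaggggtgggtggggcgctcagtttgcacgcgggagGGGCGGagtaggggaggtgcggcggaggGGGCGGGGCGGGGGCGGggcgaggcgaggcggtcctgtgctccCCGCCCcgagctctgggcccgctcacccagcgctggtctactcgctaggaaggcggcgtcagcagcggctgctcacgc
Sema6d: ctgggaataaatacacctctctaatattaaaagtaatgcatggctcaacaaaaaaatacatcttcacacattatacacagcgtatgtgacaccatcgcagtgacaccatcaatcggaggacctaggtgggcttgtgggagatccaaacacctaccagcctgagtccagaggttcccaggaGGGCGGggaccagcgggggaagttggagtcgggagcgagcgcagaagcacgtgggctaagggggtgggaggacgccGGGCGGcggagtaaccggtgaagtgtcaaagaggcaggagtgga
Plxnb3: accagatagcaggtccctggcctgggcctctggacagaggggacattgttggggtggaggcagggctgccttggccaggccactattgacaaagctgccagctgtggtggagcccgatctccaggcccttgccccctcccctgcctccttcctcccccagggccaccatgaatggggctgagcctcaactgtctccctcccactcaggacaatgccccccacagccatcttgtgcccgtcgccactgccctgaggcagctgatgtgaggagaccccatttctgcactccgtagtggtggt

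These promoters differ from each other. *Sema5a* has 5 GC boxes and 23 CpG in its 300 bases, *Sema6d* has 2 and 14, *Sema4a* has 1 and 4, and *Plxnb3* has none and 4. In all, 37 promoters of 26 members were in the table. A GC box stood in 27 of them (73.0%), against 46.2% of the promoters of protein-coding genes and 35.7% of all promoters of that length. TATAAA, searched on both strands, was in 0 of the 37, against 12.6% of those of protein-coding genes. CCAAT, on either strand, was in 18.9% against 38.2%, and the E-box CANNTG in 56.8% against 69.0%. Median GC content was 63.7% against 56.3%. Such matches describe letters and not sites in use, and the windows of genes with several starts overlap in part. Windows of the members also lay less often at the outer end of the gene than those of all genes.

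Group means of the members lay between 4.32 and 11.66. Signals of different genes come from different probes and set no order between the genes. Group means of *Sema3b*, *Sema3c* and *Sema3g* were below the median of all probe sets in *Dot1l*-cKO cerebella, and those of *Sema3b* and *Sema3c* in control cerebella. In CGN the same held for *Plxnb3* with SGC0946 and for *Sema3b* and *Sema3g* with DMSO, and in CGNP for *Sema3b* and *Plxna4* with SGC0946 and for *Sema3a*, *Sema3b*, *Plxna4* and *Plxnb3* with DMSO. Changes of genes at this level are less certain.

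**Figure D1:**
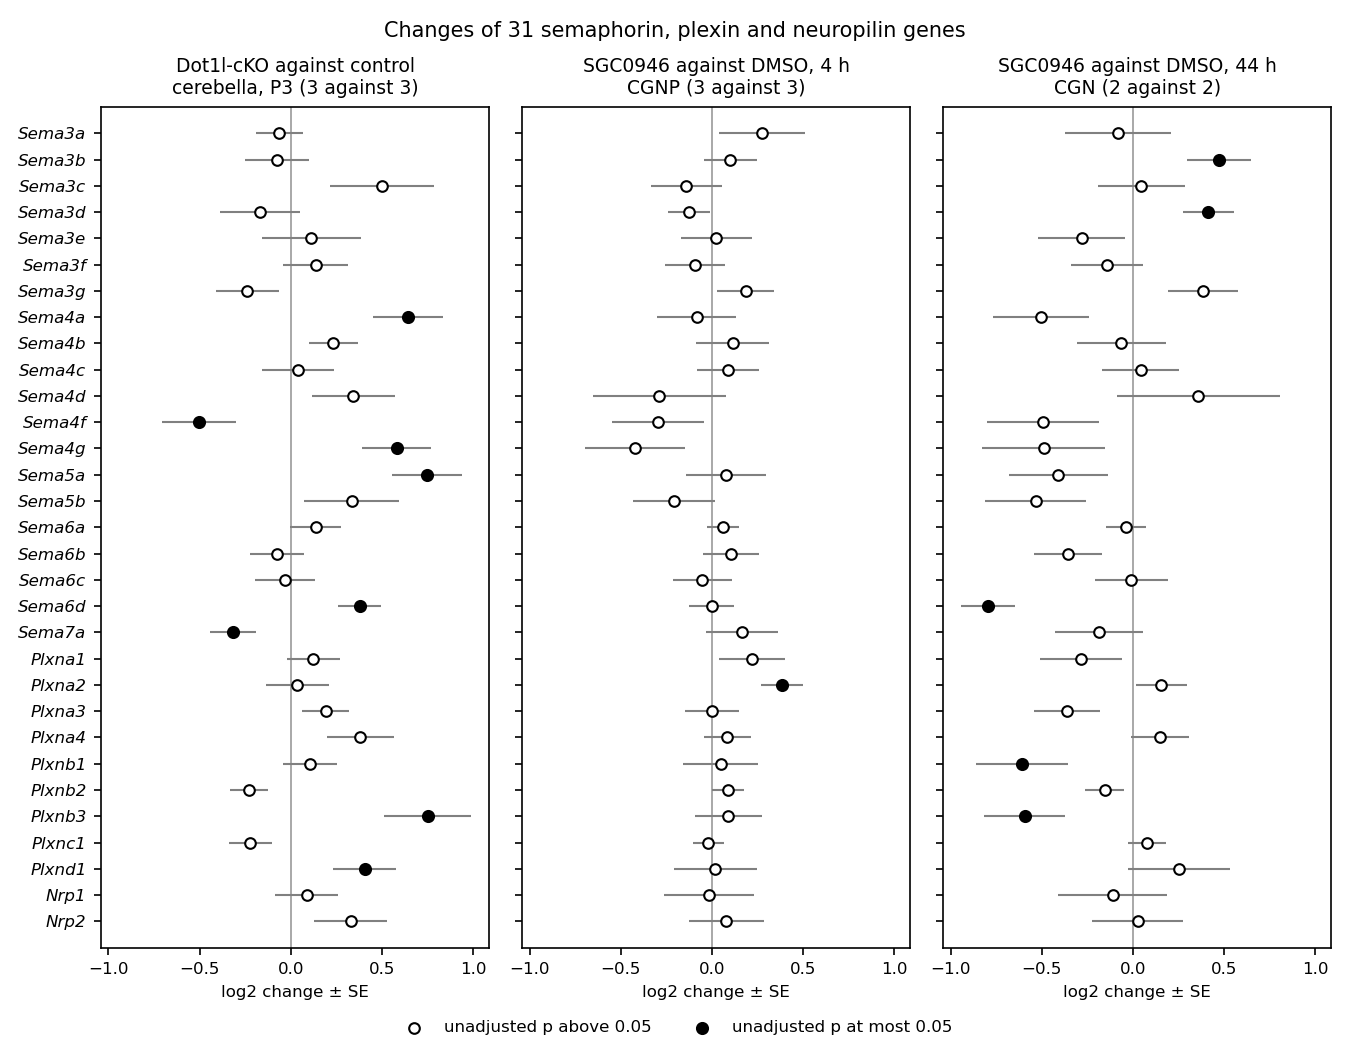
Log2 change (± SE) of the 31 genes in *Dot1l*-cKO against control cerebella, in CGNP and in CGN with SGC0946 against DMSO, with filled points at an unadjusted p of 0.05 or less. Filled points number 8 in cerebella, 1 in CGNP and 5 in CGN.

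Deletion of *Dot1l* went with higher signals of several membrane-bound semaphorins and of *Plxnb3*, but none passed the test over all genes. Means of 21 of the 31 members were higher and 10 lower in *Dot1l*-cKO cerebella than in those of controls, with a median log2 change of 0.12, against -0.01 over all genes. Benjamini-Hochberg adjusted p from limma was below 0.05 for 0 of 31 members (lowest 0.342) and for 0.0225% of all genes. At the study's own cut-off, p of 0.05 or less without adjustment, 6 members were higher and 2 lower, against 4.09% and 4.6% of all genes. Arrays did not overlap for 5 higher members (*Sema4a*, *Sema4b*, *Sema5a*, *Sema6d* and *Plxnb3*) and 2 lower ones (*Sema4f* and *Sema7a*), against 6.28% and 7.75% of all genes. With any 1 mouse left out, *Sema4a*, *Sema4g*, *Sema5a*, *Sema6d* and *Plxnb3* stood at the unadjusted cut-off each time, 5 of the 6 higher ones. With the ordinary variance of each gene, as in the contrasts of the study's methods, 3 higher members and 0 lower ones were left there.

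Class 5 semaphorins carry thrombospondin repeats, and SEMA5A is a ligand of plexin B3. *Sema5a* read 7.57, 8.09 and 8.21 in *Dot1l*-cKO, against 7.01, 7.41 and 7.19 in control cerebella. Every *Dot1l*-cKO array was above every control array, a log2 change of 0.75 (standard error 0.19, limma adjusted p = 0.342) or 1.68-fold. Its receptor gene *Plxnb3* read 6.36, 6.07 and 6.59 in *Dot1l*-cKO, against 5.22, 6.04 and 5.51 in control cerebella. The lowest *Dot1l*-cKO array was only just above the highest control array, and the log2 change was 0.75 (standard error 0.24, limma adjusted p = 0.420). *Sema5b*, the other class 5 gene, averaged 8.05 ± 0.38 in *Dot1l*-cKO and 7.71 ± 0.54 in control cerebella (SD, n = 3 each), with overlapping arrays.

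Class 4 semaphorins are transmembrane proteins that mainly bind plexins of the B group. Of the 6 members 5 had higher means in *Dot1l*-cKO. *Sema4a* read 6.98, 7.32 and 7.03 in *Dot1l*-cKO, against 6.73, 6.28 and 6.39 in control cerebella. No arrays overlapped, and the log2 change was 0.64 (standard error 0.19, limma adjusted p = 0.393). *Sema4g* read 8.19, 8.84 and 8.84 in *Dot1l*-cKO, against 7.89, 7.98 and 8.26 in control cerebella. *Dot1l*-cKO replicate 1 was below the highest control array, and the log2 change was 0.58 (standard error 0.19, limma adjusted p = 0.427). *Sema4f* ran the other way, with 7.38, 6.58 and 7.06 in *Dot1l*-cKO, against 7.40, 7.58 and 7.55 in control cerebella. Its log2 change of -0.50 (standard error 0.20, limma adjusted p = 0.523) leaned on *Dot1l*-cKO replicate 2. Without that array the change was -0.29 and no longer at the unadjusted cut-off, which it also missed without control replicate 2 (-0.47) or control replicate 3 (-0.48). *Sema4b* differed by 0.23, *Sema4d* by 0.34 and *Sema4c* by 0.04.

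**Figure D2:**
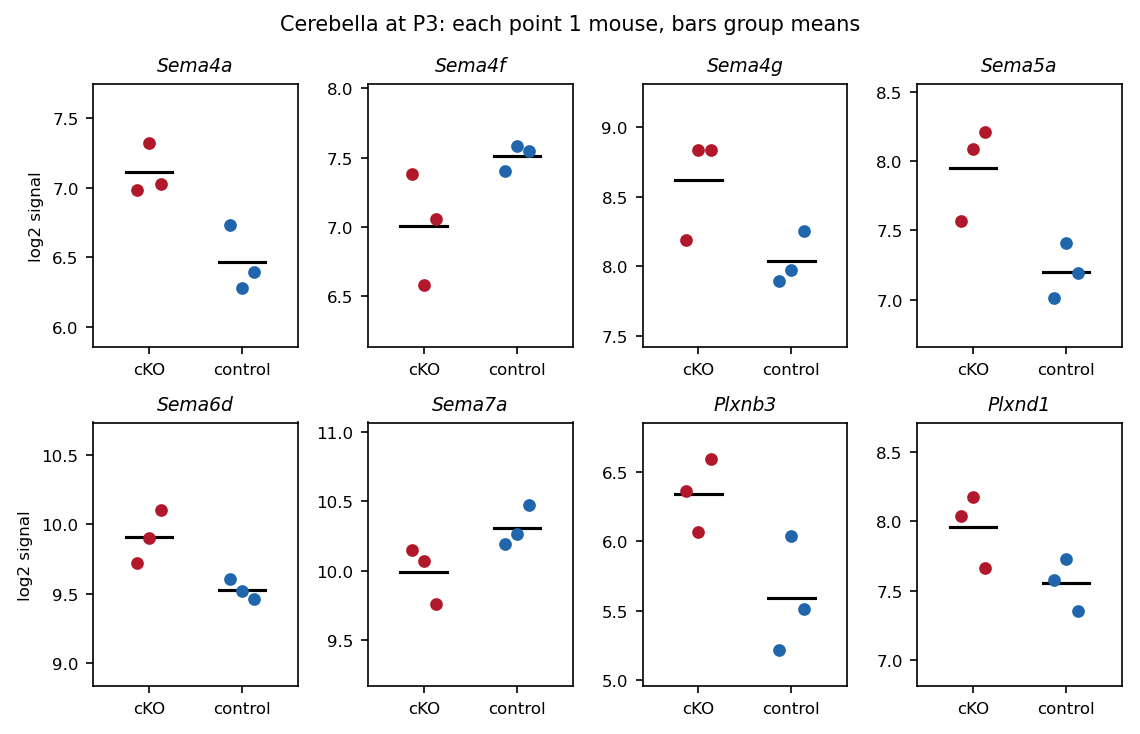
Log2 signal of the 8 genes at an unadjusted p of 0.05 or less in cerebella, *Dot1l*-cKO left and control right, each point 1 mouse and bars the group means, with a y axis of the same length in every panel. *Sema4f* and *Sema7a* are lower in *Dot1l*-cKO and the other 6 higher, and the arrays of *Sema4g* and *Plxnd1* overlap.

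Class 6 semaphorins are transmembrane ligands of A plexins, and class 7 is a lipid-anchored ligand of plexin C1. *Sema6d* read 9.72, 9.90 and 10.10 in *Dot1l*-cKO, against 9.60, 9.52 and 9.47 in control cerebella. The groups did not overlap and the log2 change was 0.38 (standard error 0.12, limma adjusted p = 0.419). The paper also tested *Sema4a*, *Sema5a* and *Sema6d* by qRT-PCR in *Dot1l*-cKO. It reported a significant increase of *Sema4a* and *Sema5a* and did not list *Sema6d* as increased. The paper's own array change of *Sema5a* in *Dot1l*-cKO was smaller than the one here. It proposes *Sema4a* and *Sema5a* as putative direct targets of DOT1L, because their H3K79me2 changed in inhibitor-treated CGN. *Sema6a*, *Sema6b* and *Sema6c* differed by 0.14, -0.07 and -0.03. *Sema7a* read 10.15, 10.07 and 9.76 in *Dot1l*-cKO, against 10.19, 10.26 and 10.47 in control cerebella. It was lower in every *Dot1l*-cKO array, with a log2 change of -0.32 (standard error 0.12, limma adjusted p = 0.508). Without *Dot1l*-cKO replicate 3 the change was -0.20 and without control replicate 3 -0.24, neither at the unadjusted cut-off. Nor was -0.27 with sex as a term (2 of 3 *Dot1l*-cKO and 1 of 3 control mice were female by *Xist*).

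Secreted class 3 semaphorins, at 0 of 7 members at the unadjusted cut-off, had a median log2 change of -0.06 in *Dot1l*-cKO. *Sema3c* had the highest difference of the class, 0.50, which rested on *Dot1l*-cKO replicate 3 (5.74, against 4.61 and 4.37 in the other two). *Sema3e* showed the same pattern, with 6.02 in *Dot1l*-cKO replicate 3 and 5.08 and 4.76 in the other two, against 5.26, 5.18 and 5.09 in control cerebella. Among the receptors 7 of 9 plexins had higher means. *Plxnd1*, a receptor of SEMA3E known from blood vessels and neurons, read 8.04, 8.17 and 7.66 in *Dot1l*-cKO, against 7.58, 7.73 and 7.35 in control cerebella. Its lowest *Dot1l*-cKO array lay within the control range, and the log2 change was 0.41 (standard error 0.17, limma adjusted p = 0.550). It missed the unadjusted cut-off without *Dot1l*-cKO replicate 1 (0.36), *Dot1l*-cKO replicate 2 (0.30), control replicate 1 (0.42) or control replicate 3 (0.30). *Plxna4* differed by 0.38, *Plxnb2* by -0.23, *Plxnc1*, the receptor of SEMA7A, by -0.22, and *Nrp1* and *Nrp2* by 0.09 and 0.33, without reaching that cut-off.

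Other genes of the pathway are read against the same shares of all genes, 4.09% higher and 4.6% lower. Of 27 measured signalling genes downstream of plexins and neuropilins, 1 was higher and 1 lower at the unadjusted cut-off in *Dot1l*-cKO, with a median change of 0.09. *Mical2*, of a family of plexin-linked oxidases of actin, differed by 0.47 (standard error 0.20, limma adjusted p = 0.550), and *Rnd3*, a small GTPase, by -0.31 (standard error 0.11, limma adjusted p = 0.484). Of 18 co-receptors and VEGF ligands and receptors, 1 was higher. This was *Trem2*, a receptor of myeloid cells, at 0.78 (standard error 0.20, limma adjusted p = 0.342).

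Markers of cells outside the granule lineage were also measured. In *Dot1l*-cKO cerebella 6 of 7 oligodendrocyte lineage markers, 5 of 5 markers of GABAergic interneurons, 6 of 6 of microglia and macrophages, and 6 of 6 of pericytes, smooth muscle and meninges had higher means. So did 4 of 6 markers of astroglia, 4 of 6 of endothelium and 2 of 4 of Purkinje cells, with median log2 changes of 0.13, 0.13 and -0.03. Summed linear signals of the oligodendrocyte markers were 3537 to 4121 in *Dot1l*-cKO and 3116 to 3555 in control cerebella. The sums of the interneuron markers were 982.7 to 1071 in *Dot1l*-cKO, against 668.5 to 952.3 in controls. For microglia they were 615 to 913 in *Dot1l*-cKO, against 521.1 to 626.6 in controls, and for pericytes and meninges 3806 to 4353 in *Dot1l*-cKO, against 3541 to 3827 in controls. Of the oligodendrocyte markers *Mag* differed by 0.74, *Sox10* by 0.51, *Cspg4* by 0.45, *Olig1* by 0.29, *Olig2* by 0.24, *Pdgfra* by 0.01 and *Mbp* by -0.05. *Pax2* had the largest change of the interneuron markers, 1.14 (limma adjusted p = 0.0674). The part of these cells in the values of *Sema4a*, *Sema4g*, *Sema5a*, *Sema6d*, *Plxnb3* and *Plxnd1* was not tested.

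In CGNP after 4 h of SGC0946, *Plxna2* was the 1 member at the unadjusted cut-off. Means of 18 members were higher and 13 lower, with a median log2 change of 0.05 (0.00 over all genes), and limma's adjusted p was below 0.05 for 0 of 31, against 0.0316% of all genes. At the unadjusted cut-off 1 member was higher and 0 lower, against 2.25% and 1.83% of all genes. Arrays did not overlap for 1 higher member and 1 lower member, against 5.3% and 4.49% of all genes. The higher one was *Plxna2*, the receptor of SEMA6A in granule cells. It read 9.21, 9.13 and 9.24 with SGC0946 and 8.72, 8.82 and 8.88 with DMSO, a log2 change of 0.39 (standard error 0.12, limma adjusted p = 1). Each treated culture was above every DMSO culture, and the change was 0.34 to 0.42 with any 1 culture left out. *Sema6a* itself differed by 0.06. *Sema5b* was the lower one, with 4.81, 4.82 and 4.75 with SGC0946 and 5.25, 4.90 and 4.86 with DMSO, and a change of -0.21 that did not reach the unadjusted cut-off. *Sema4a*, *Sema5a* and *Sema6d*, higher in *Dot1l*-cKO cerebella, differed by -0.08, 0.08 and 0.00. For *Sema4d*, *Sema4f* and *Sema4g* SGC0946 replicate 3 lay low, at 4.97, 6.33 and 7.18 against 6.10 to 6.84, 6.93 to 7.52 and 8.33 to 8.63 with DMSO. Of the signalling genes, 0 of 27 were higher and 1 was lower, *Limk2*, a kinase of the actin regulator cofilin, at -0.37 (standard error 0.17, limma adjusted p = 1).

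After 44 h of SGC0946, CGN had lower signals of *Sema6d*, *Plxnb1* and *Plxnb3* and higher ones of *Sema3b* and *Sema3d* at the unadjusted cut-off. Means of 11 members were higher and 20 lower, with a median log2 change of -0.11, against -0.01 over all genes. Limma's adjusted p was below 0.05 for 0 of 31 members (lowest 0.0571), against 0.153% of all genes. The unadjusted counts, 2 higher and 3 lower, stand against 3.39% and 4.08% of all genes. Arrays did not overlap for 5 higher and 12 lower members, against 17% and 17.1% of all genes. With 2 arrays a group such counts carry little weight. Over the SGC0946 cultures in turn, the lower members numbered 3 without replicate 1 and 5 without replicate 2, the culture labelled P9. The lower count was 2 without DMSO replicate 2, and the higher count was 0 without DMSO replicate 1.

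*Sema6d* had the largest change of the 31 members in CGN. It read 8.93 and 8.76 with SGC0946 and 9.68 and 9.59 with DMSO, a log2 change of -0.79 (standard error 0.15, limma adjusted p = 0.0571), 1.74-fold lower. Both treated cultures lay below both DMSO cultures, and *Sema6d* was the 1 member at the unadjusted cut-off with any 1 array left out. *Plxnb3* read 4.28 and 4.42 with SGC0946 and 4.69 and 5.20 with DMSO. Its signal with SGC0946 was under the median of all probe sets, and the log2 change was -0.59 (standard error 0.22, limma adjusted p = 0.530). Without DMSO replicate 2 the change was -0.34 and without SGC0946 replicate 1 -0.52, neither at the unadjusted cut-off. *Plxnb1*, the receptor of SEMA4D, read 5.27 and 5.80 with SGC0946 and 5.92 and 6.37 with DMSO, a log2 change of -0.61 (standard error 0.25, limma adjusted p = 0.598). It was -0.38 without DMSO replicate 2 and -0.35 without SGC0946 replicate 1, and -0.30 as the mean of its 2 probe sets, the second of which is dim and differed by 0.01. None of these 3 values reached the cut-off.

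**Figure D3:**
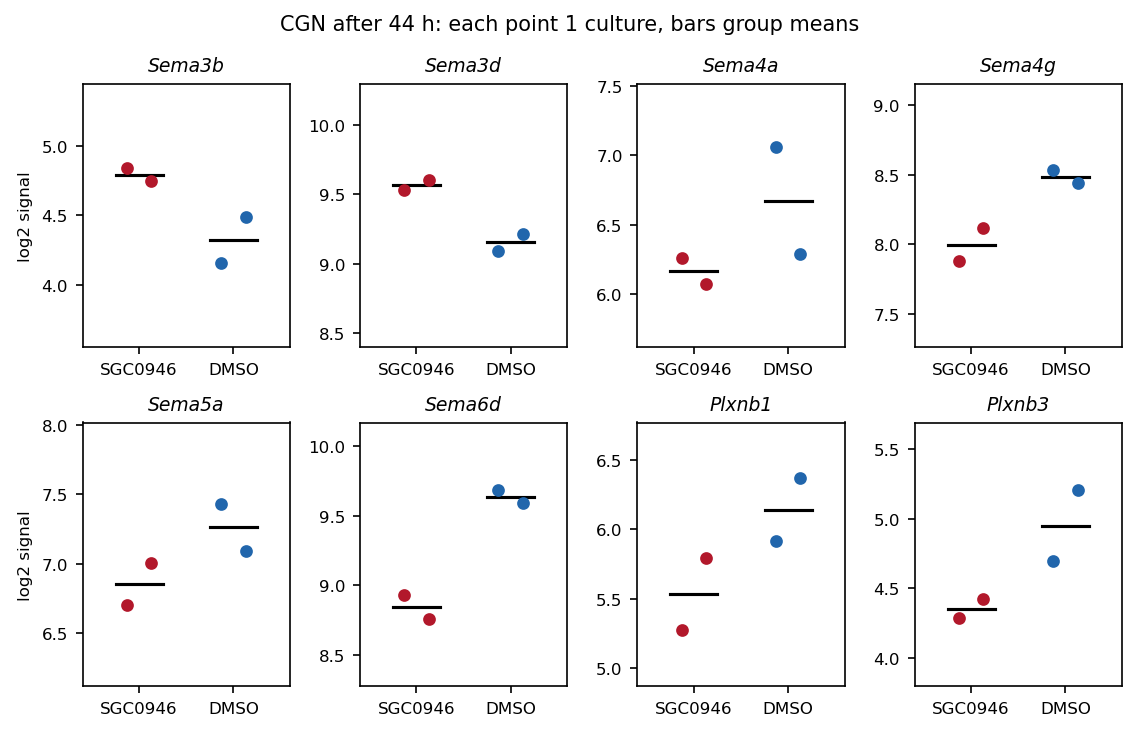
Log2 signal in CGN of the 5 genes at the unadjusted cut-off and of *Sema4a*, *Sema4g* and *Sema5a*, SGC0946 left and DMSO right, each point 1 culture and bars the group means. *Sema3b* and *Sema3d* are higher with SGC0946 and the other 6 lower, and *Sema6d* has the widest gap between the groups among the lower ones.

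The 2 higher members were secreted class 3 semaphorins. *Sema3d* read 9.53 and 9.60 with SGC0946 and 9.09 and 9.22 with DMSO, a log2 change of 0.41 (standard error 0.14, limma adjusted p = 0.443). It was 0.35 and no longer at the cut-off without DMSO replicate 1. *Sema3b* read 4.84 and 4.74 with SGC0946 and 4.16 and 4.49 with DMSO, the DMSO mean below the median of all probe sets, with a log2 change of 0.47 (standard error 0.18, limma adjusted p = 0.530). This was 0.30 without DMSO replicate 1 and 0.42 without SGC0946 replicate 1, neither at the cut-off. *Sema3g* differed by 0.39 and its arrays did not overlap. *Sema4a* read 6.26 and 6.07 with SGC0946 and 7.06 and 6.29 with DMSO, and *Sema5a* read 6.70 and 7.01 with SGC0946 and 7.43 and 7.09 with DMSO. Neither pair overlapped, but the log2 changes of -0.50 (standard error 0.27) and -0.41 (standard error 0.27) did not reach the unadjusted cut-off, nor did *Sema4g* at -0.49. *Nrp1* and *Nrp2* differed by -0.11 and 0.03.

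Among the 27 signalling genes 2 were higher and 2 lower at the unadjusted cut-off in CGN with SGC0946, against 3.39% and 4.08% of all genes. *Dpysl2*, a collapsin response mediator protein that carries SEMA3A signals to microtubules, differed by 0.24 and *Cdk5r1*, the activator of the kinase CDK5, by 0.35. *Dpysl4*, of the same family as *Dpysl2*, differed by -0.35 and *Rras*, a GTPase that plexins inactivate, by -0.85 (standard error 0.39). Limma's adjusted p was 0.442 to 0.653 for these 4, and the arrays of *Rras* overlapped. None of the 18 co-receptor and VEGF genes reached the cut-off.

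Lists of markers of other cells were measured in these cultures as well, and 3 of the 7 had lower means throughout. In CGN with SGC0946, 0 of 7 oligodendrocyte lineage markers, 0 of 5 interneuron markers and 0 of 6 markers of pericytes, smooth muscle and meninges had higher means. Summed linear signals of the oligodendrocyte markers were 1042 to 1074 with SGC0946, against 1378 to 1726 with DMSO. For interneurons they were 117.5 to 203.9 with SGC0946, against 179.7 to 304 with DMSO, and for pericytes and meninges 902.7 to 1407 with SGC0946, against 1561 to 1879 with DMSO. Higher means were found for 1 of 6 markers of astroglia, 2 of 6 of endothelium, 2 of 4 of Purkinje cells and 3 of 6 of microglia and macrophages, with median log2 changes of -0.25, -0.11, 0.05 and 0.04. Of the oligodendrocyte markers *Olig2* differed by -0.82 and *Olig1* by -0.73, the largest changes, and *Mbp* by -0.13, the smallest. Sums of the granule lineage markers were 7800 to 7963 with SGC0946 and 7416 to 7540 with DMSO. *Zic1*, with the highest signal of this list, weighs most in these sums and differed by 0.18. Of the 6 markers 4 were higher on average with SGC0946, 3 of them without overlap, against 17% of all genes. The other 2, *Pax6* and *Zic2*, were lower without overlap (-0.18 and -0.19), against 17.1% of all genes. Only *Zic1* reached the unadjusted cut-off. The part of the other cells in the lower values of *Sema6d*, *Plxnb1* and *Plxnb3* was not tested.

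Members higher in *Dot1l*-cKO cerebella were then followed in CGN with SGC0946. Of the 6 higher at the unadjusted cut-off in cerebella, 5 had lower means and non-overlapping arrays in CGN with SGC0946, and *Plxnd1* was the exception. The same was not rare among all genes, since of 908 genes at that cut-off in cerebella 64.3% had lower means in CGN with SGC0946 and 24.2% were lower without overlap. *Sema4a*, *Sema5a*, *Sema6d* and *Plxnb3* were at the cut-off and without overlap in cerebella and lower without overlap in CGN, as were 0.721% of all genes.

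**Figure D4:**
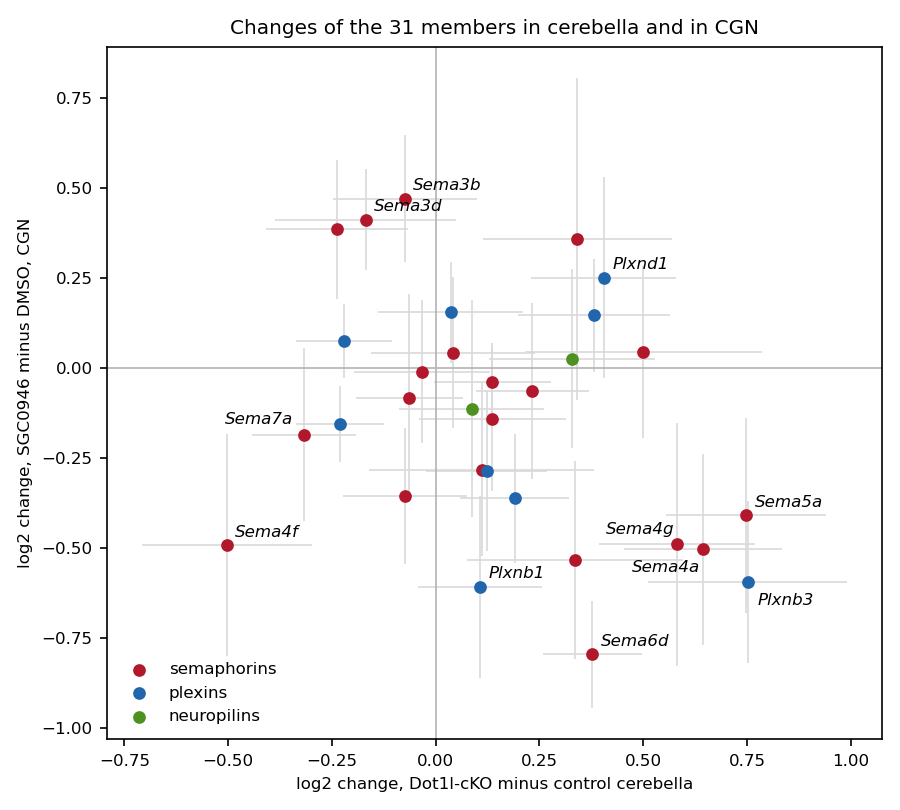
Log2 change in *Dot1l*-cKO against control cerebella (x axis) and in CGN with SGC0946 against DMSO (y axis) for the 31 genes, with lines of 1 SE and names for genes at an unadjusted p of 0.05 or less in either. *Sema4a*, *Sema4g*, *Sema5a*, *Sema6d* and *Plxnb3* lie at the lower right, higher in *Dot1l*-cKO and lower with SGC0946.

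The difference between the cerebellar change and the CGN response was tested itself, in a fit of all 16 arrays. For *Sema6d* it was 1.17 (standard error 0.19, limma adjusted p = 0.00895), and *Sema6d* was the 1 member past the adjusted test, against 0.185% of all genes. The direction was set by 0.38 in cerebella and -0.79 in CGN. Without CGN DMSO replicate 1 the difference was 1.13 and limma's adjusted p 0.0565. At the unadjusted cut-off 7 members had positive and 3 negative differences, against 5.18% and 4.68% of all genes. The positive ones were *Sema6d*, *Plxnb3* at 1.35 (limma adjusted p = 0.124), *Sema5a* at 1.16, *Sema4a* at 1.15, *Sema4g* at 1.07, *Plxnb1* at 0.71 and *Plxna3* at 0.55. The negative ones were the class 3 genes *Sema3g* (-0.62), *Sema3d* (-0.58) and *Sema3b* (-0.54).

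Against the CGNP response, the cerebellar change differed in 0 of 31 members at limma's adjusted p (0.0631% of all genes) and in 6 at the unadjusted cut-off, 5 positive and 1 negative, against 2.89% and 3.6% of all genes. The CGN response minus the CGNP response passed limma's adjusted test for 0 members and 0% of all genes. At the unadjusted cut-off, reached in the negative direction by 3.14% and in the positive by 2.32% of all genes (1210 genes in all), it was negative for *Sema6d* (-0.79, standard error 0.19) and *Plxnb3* (-0.69, standard error 0.29) and positive for *Sema3d* (0.54, standard error 0.18).

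CGN and CGNP under DMSO were set side by side. Besides the cell stage, these cultures differed in medium (FBS in CGN, SHH in CGNP), time under DMSO and labelled days in vitro. The stage cannot be told apart from these conditions here, and the part of each was not tested. The arrays of these experiments appear to have been normalized apart, so the differences are described with no test. At least 1 apart on the log2 scale and without overlap were 3 members higher and 5 lower in CGN, against 2.75% and 11.2% of all genes. The median difference was 0.18 over the members and -0.23 over all genes. Higher in CGN was *Sema5a*, with 7.43 and 7.09 in CGN and 5.27, 5.10 and 4.46 in CGNP, a difference of 2.32. *Plxnd1* read 6.82 and 7.20 in CGN and 5.06, 5.26 and 5.08 in CGNP, a difference of 1.88. *Nrp1*, the neuropilin that binds SEMA3A, read 6.52 and 6.97 in CGN and 5.19, 5.69 and 5.32 in CGNP, a difference of 1.35.

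Lower in CGN were 5 semaphorins. *Sema3c*, a secreted ligand of neuropilins, read 5.54 and 5.76 in CGN and 7.97, 8.14 and 8.17 in CGNP, a difference of -2.44. *Sema6c* read 7.63 and 7.35 in CGN and 9.47, 9.56 and 9.54 in CGNP, a difference of -2.03. *Sema7a* read 7.91 and 7.41 in CGN and 9.39, 9.25 and 9.35 in CGNP, a difference of -1.67, while its receptor gene *Plxnc1* differed by 0.15. The class 4 genes followed at a smaller size. *Sema4c*, a ligand of plexin B2, read 7.77 and 7.62 in CGN and 9.08, 8.74 and 8.98 in CGNP, a difference of -1.24. *Sema4b* read 5.96 and 6.54 in CGN and 7.70, 7.17 and 7.28 in CGNP, a difference of -1.14. *Plxna2*, at 0.98, was just under the limit. Among the 9 plexins 7 had higher means in CGN, against 5796 of 22180 genes. *Plxnb1* and *Plxnb2* had lower ones (-0.69 and -0.38), though *Plxnb2* was at 0.20 after joint quantile normalization. *Sema6d* and *Sema4g*, lower in CGN with SGC0946, stood at 0.15 and 0.04.

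**Figure D5:**
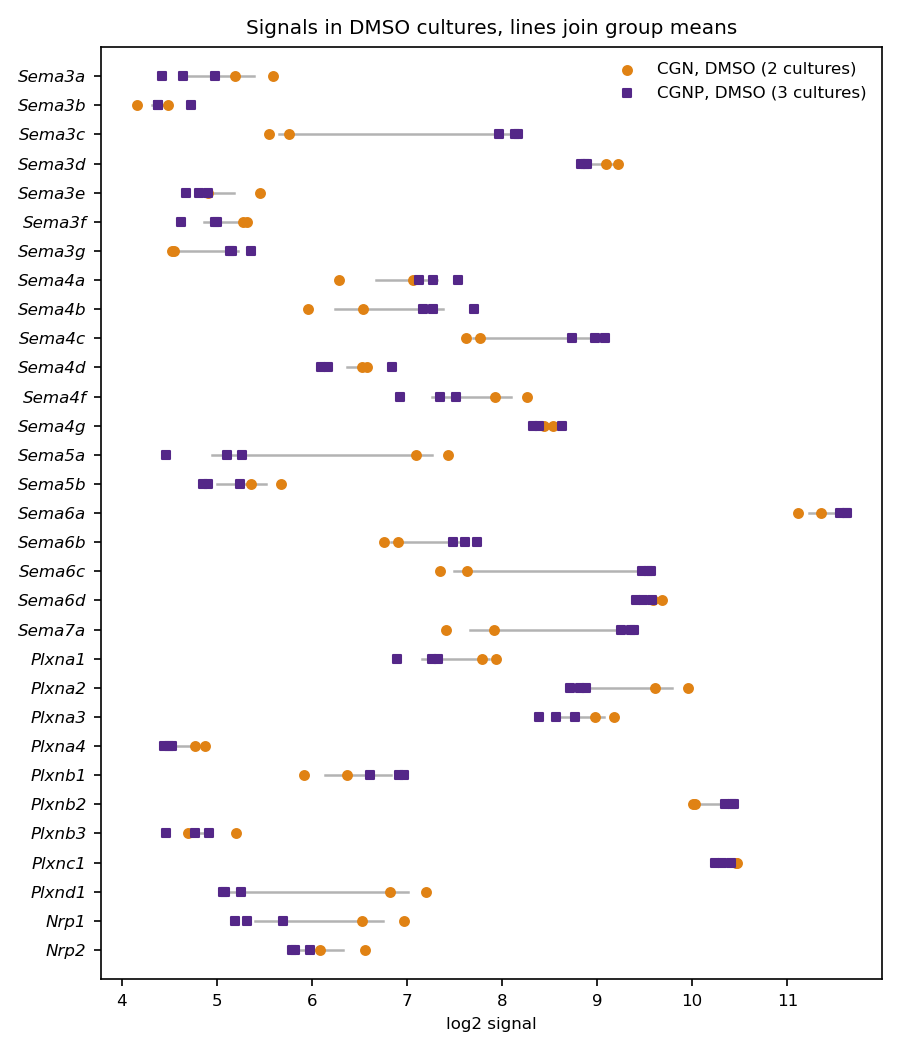
Log2 signal of the 31 genes in DMSO cultures, circles for each CGN culture and squares for each CGNP culture, with lines between the group means. *Sema5a*, *Plxnd1* and *Nrp1* are higher in CGN, and *Sema3c*, *Sema6c* and *Sema7a* are lower.

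After joint quantile normalization of the culture arrays 7 members were at least 1 higher in CGN and 3 at least 1 lower, against 4.63% and 4.85% of all genes. The median difference was then 0.47 over the members and -0.02 over all genes. *Sema3c*, *Sema6c* and *Sema7a* remained lower (-2.20, -1.56 and -1.19), *Sema4c* and *Sema4b* were -0.77 and -0.86, and *Sema5a*, *Plxnd1* and *Nrp1* were 2.58, 2.11 and 1.55.

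Markers of other cells also differed between these cultures. Over all genes, 5796 of 22180 had higher means in CGN on the deposited values, with a median difference of -0.23. The counts below stand against that share. Means were higher in CGN for 4 of 4 Purkinje cell markers and 5 of 6 markers of pericytes, smooth muscle and meninges, with median differences of 1.43 and 0.80. Summed linear signals of the Purkinje cell markers were 1092 to 1892 in CGN and 219.5 to 303.4 in CGNP, and those of pericytes, smooth muscle and meninges 1561 to 1879 in CGN and 708 to 808 in CGNP. Of the Purkinje cell markers *Ppp1r17* was below the median of all probe sets in both, and *Foxp2* in CGNP. Higher in CGN were also 5 of 7 oligodendrocyte lineage markers, 4 of 5 of interneurons, 3 of 6 of astroglia, 2 of 6 of endothelium and 0 of 6 of microglia and macrophages, and 0 of 5 genes of proliferation. The part of these cells in the values of *Sema5a*, *Plxnd1* and *Nrp1* was not tested.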

How the data were processed

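The deposited log2 signals of 18 arrays were used; 2 CGN arrays, whose title and description name opposite treatments, went into no comparison. Per the labels, the authors made the log2 signals in Partek with RMA, and for neither tool is a version given in the sources used here. Signal distributions differed little within the 3 experiments (up to 0.0763 between sorted values of 2 arrays) and more between them (at least 0.193), as after separate normalization. Authors' tables with p-values, q-values and fold changes were not used. In the platform annotation 23521 of 34472 probe sets carry a single gene symbol, 1820 carry more and 9131 carry none; the probe set with the highest mean over the 16 arrays compared stood for each of 22180 genes. The family has 33 probe sets, since *Plxna1* and *Plxnb1* have 2 each.

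Tests used lmFit and eBayes, with an intensity trend, of limma 3.58.1 (R 4.3.3), with the 6 cerebella in one fit, the 10 culture arrays in another and all 16 for differences between cerebella and cultures. p was adjusted by the Benjamini-Hochberg method over all genes. SD refers to arrays. The number of arrays limits the precision: the median standard error of a member's change was 0.17 in cerebella, 0.18 in CGNP and 0.22 in CGN. Treated and DMSO cultures of CGNP share mice by their labels (correlations of deviations within a mouse or pool 0.01 to 0.04). A fit with each mouse and the pool of both as replicate blocks was an alternative. Others were median subtraction, quantile normalization, the mean of a gene's probe sets, leaving out dim genes, no trend, ordinary variance, separate fits per experiment, sex as a term and each array left out. The procedure was tested on simulated data. Named genes are members at the unadjusted cut-off in a comparison, genes named by the paper, members at least 1 apart between DMSO cultures, and up to 3 genes of each pathway list and direction; other members are given to account for their class. Members, lists and markers were chosen with earlier results of these data known. Promoters are from RefSeq.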

Additional observations from a re-analysis of the deposited data

Results flagged for a closer look

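The change of *Sema6d* in *Dot1l*-cKO cerebella and its response to SGC0946 in CGN differed by 1.17 on the log2 scale (limma adjusted p = 0.00895). It was higher in 3 of 3 *Dot1l*-cKO cerebella than in any control and lower in 2 of 2 treated CGN cultures than in either DMSO culture. The paper tested *Sema6d* by qRT-PCR in *Dot1l*-cKO and did not list it among the significantly increased genes. Over the alternatives, which were added after the data had been seen, the difference was 1.08 to 1.27 and limma's adjusted p 0.00422 to 0.0565, the highest without CGN DMSO replicate 1. These were 15 alternatives, 10 of them with 1 array left out. Ordinary variance, sex as a term and separate fits per experiment were not run for this difference. Whole cerebellum at P3 and cultures of treated neurons differ in cell types, strain and time, and their part was not tested.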

How the results depend on the processing

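No member at the unadjusted cut-off, and none of the 8 at least 1 apart between DMSO cultures, changed sign in that comparison under any alternative run. Over all 31 members, 7 in cerebella, 16 in CGNP, 12 in CGN and 4 between DMSO cultures changed sign under at least 1 alternative. Among them *Sema4d*, *Sema4f* and *Sema4g* in CGNP were 0.27, 0.03 and 0.00 without SGC0946 replicate 3, and *Plxnd1* in CGN was -0.20 without SGC0946 replicate 2. With quantile normalization 20 members in place of 18 had higher means in CGNP and 12 in place of 11 in CGN. With ordinary variance 3 members were higher and 0 lower in cerebella, and 1 higher and 1 lower in CGN, at the unadjusted cut-off; with dim genes left out 1 was higher in CGN. In CGN 1 member, *Sema6d*, passed limma's adjusted test with the median of each array subtracted (adjusted p = 0.0474) and with dim genes left out (adjusted p = 0.0329). In 9 of the 11 alternatives no member passed. The Benjamini-Hochberg adjusted p of *Sema6d* ran from 0.0329 to 0.954 over the 11. Joint quantile normalization gave 7 members higher and 3 lower between DMSO cultures. With 1 array left out in turn, the members at the cut-off numbered 5 to 7 higher and 1 to 3 lower in cerebella, 0 to 1 lower in CGNP, and 0 to 2 higher and 2 to 5 lower in CGN; between DMSO cultures 3 to 4 were higher and 4 to 5 lower. With treated and DMSO cultures of the same mouse or pool as a block in CGNP, *Plxna2* stayed at 0.39 (limma adjusted p = 0.970) and no call changed. The pool of both mice counted as a block of its own, so mice shared between blocks were not accounted for. The cause of these shifts was not tested. With 2 or 3 arrays a group, changes of about 0.2 are within the standard error of many members, and signals near the array median limit *Sema3b*, *Sema3g*, *Plxna4* and *Plxnb3*.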

Other observations

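The 2 CGN arrays whose labels name opposite treatments, labelled days 3 and 6 in vitro, were in no group. The array of day 3 read 9.67 for *Sema6d*, 6.76 for *Sema5a*, 6.80 for *Sema4a*, 4.66 for *Plxnb3* and 9.58 for *Sema3d*. The array of day 6 read 8.86 for *Sema6d*, 6.46 for *Sema5a*, 6.52 for *Sema4a*, 4.57 for *Plxnb3* and 9.72 for *Sema3d*.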
